A study of Mus musculus with 8 samples.

Results

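A set of 10 genes of the contractile actin filament was followed across 8 mouse tumours: the tropomyosins Tpm1, Tpm2, Tpm3 and Tpm4, the single-exon Tpm3 copy Tpm3-rs7, caldesmon (Cald1), calponins 2 and 3 (Cnn2, Cnn3), and the cytoplasmic actins Actb and Actg1. They were taken by name from a table of 35275 genes, as the tropomyosin and cytoplasmic actin family. Tpm3-rs7 was chosen by its count difference between the genotype groups in these same tumours, so its values are a description, its counting among the genes called below carries no weight, and the other members were listed with their fold changes known.

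All the mice carried conditional (floxed) alleles of Nf2, which encodes the tumour suppressor merlin, and of Cdkn2a, which encodes p16INK4a and p19ARF, and adenovirus carrying Cre was injected into the peritoneal cavity to delete them. Pak2, a p21-activated kinase downstream of Rac and Cdc42, was wild-type in 3 primary peritoneal tumours (19, 20 and 127), described as Nf2-/-, cdkn2a-/-, Pak2 +/+. In 4 primary peritoneal tumours (13, 14A, 59 and 61) Pak2 was floxed as well, and these are described as Pak2 -/-. Tumour 14B, labelled a secondary tumour, has the genotype of those 4 and is the only tumour of its kind. The labels give no age, no promoter for the Cre and no cell type that received it. They do not say whether tumours of a group, or 14A and 14B, came from separate animals, so p-values measure only the spread between these samples. The stated purpose was to compare gene expression between genotypes as mesothelioma forms.

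Actin monomers polymerise into filaments, and tropomyosins are coiled-coil dimers that lie end to end along them and set which myosins and severing proteins can bind. Tpm1 and Tpm2 supply most tropomyosin of skeletal and smooth muscle and the long isoforms of stress fibres, while Tpm3 and Tpm4 supply mainly short cytoplasmic isoforms in cells that are not muscle. Caldesmon and the calponins bind the filament beside tropomyosin and restrain myosin. Actb and Actg1 encode the beta and gamma actins of almost every cell, and serum response factor (SRF), whose cofactors sense free actin monomers, drives many of these genes through the CArG box.

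Total counts ran from 13469851 (14B) to 20402401 (14A). Levels are CPM, scaled in each tumour to its counts in the 15412 genes that passed the low-count filter, with TMM factors over those genes. The filter was set on the primary tumours. Those genes held 11141192 of the 13469851 counts of tumour 14B, against 19667212 of 20402401 in 14A. The CPM of 14B are therefore higher than if scaled to its total count. A count of 0 would allow up to 3 counts, or 0.139 to 0.193 CPM in the primary tumours and 0.311 CPM in 14B, for counting error only, and no member was at 0 in any tumour. Pak2 transcripts had 128, 90.1 and 92.7 CPM in wild-type tumours 19, 20 and 127, 186, 238, 165 and 131 CPM in tumours 13, 14A, 59 and 61, and 239 CPM in 14B, so the libraries labelled Pak2-null were not lower in Pak2, and they are called "labelled Pak2-null" throughout. Gene-level counts are blind to the loss of a single floxed exon. Mesothelial markers were uneven between tumours. Their summed level ran from 39.7 to 309.4 CPM in the wild-type group and from 10.96 (tumour 13) to 362 CPM (tumour 61) in the 4 labelled Pak2-null. Calb2 was at 0 in tumours 19, 13, 59 and 61, and Muc16 at 0 in tumours 127, 59 and 61. Another of these markers, Msln, ran from 22.8 to 26.2 CPM in the wild-type tumours. Msln was at 1.12, 8.99, 60.5 and 132 CPM in tumours 13, 14A, 59 and 61.

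Libraries also differed in the markers of other cells, and these sums are set beside the results below. The 20 skeletal muscle markers summed to 3157, 36956 and 33415 CPM in tumours 19, 20 and 127, and to 15.1, 46.7, 419.6 and 903 CPM in tumours 13, 14A, 59 and 61. The 10 fibroblast markers summed to 21242 to 28261 CPM in 6 primary tumours, but to 2616 CPM in 14A and 4674 CPM in 14B. The 9 leucocyte markers summed to 5708 CPM in 14A and 5404 CPM in 14B, and to at most 1601 CPM elsewhere. Tumours 14A and 14B therefore stood apart from the rest.

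The Tpm3-rs7 results turn on how alike it is to Tpm3, so both sequences are shown first. In the GENCODE M21 annotation of GRCm38, Tpm3 has 16 transcripts and Tpm3-rs7 is 1 exon of 2147 bases. The deposited gene annotation places Tpm3 at chr3:90072649-90100902 on the plus strand. It places Tpm3-rs7 at chr14:113314608-113316713, also on the plus strand, as protein-coding with a length of 2106 bases. Of 2102 bases of the copy aligned to the 8-exon Tpm3 transcript of 2230 bases, 99.38% were identical, with 13 substitutions and 3 gaps that cover 6 bases. Both coding stretches are 744 bases long and differ at 3 positions, G72A, G98A and G127A (Tpm3 base first, counted from 1 at the coding start). The other 10 substitutions lie outside the coding stretch. All 3 coding differences fall in bases 61 to 180, shown here with the differing bases in capitals. In Tpm3 this stretch crosses an exon junction (chr3:90079792-90079863 and chr3:90086446-90086493), and in Tpm3-rs7 it is unbroken (chr14:113314736-113314855).

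Tpm3: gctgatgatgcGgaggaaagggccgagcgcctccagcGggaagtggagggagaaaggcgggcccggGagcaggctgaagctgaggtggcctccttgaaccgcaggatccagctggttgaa
Tpm3-rs7: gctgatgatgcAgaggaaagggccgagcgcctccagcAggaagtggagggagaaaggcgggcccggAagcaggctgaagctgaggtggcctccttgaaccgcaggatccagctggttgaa

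The copy holds the exons already joined, so a read over a Tpm3 exon junction can match both genes, and within the aligned bases a read must cover a differing base to be told apart. Of the 100-base windows of the copy, 49.8% occur unchanged in that Tpm3 transcript, and the longest identical run is 624 bases. With 50-base windows the share is 69.4%, and with 150-base windows 33.8%. The read length and how the authors' counting treated reads that match both genes are not stated in the available sources, so the separate counts of Tpm3 and Tpm3-rs7 are uncertain.

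Counts assigned to Tpm3-rs7 were few in the wild-type tumours and many in every tumour labelled Pak2-null. Its level was 8.72, 6.58 and 1.80 CPM in tumours 19, 20 and 127. In tumours 13, 14A, 59 and 61 it was 335, 441, 320.3 and 241 CPM, and in tumour 14B it was 379 CPM. The groups did not overlap, and the lowest tumour labelled Pak2-null (61) was 27.7 times the highest wild-type tumour (19). The log2 fold change, labelled Pak2-null minus wild-type, was 5.89 (SE 0.65).

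As a share of the counts of both genes, Tpm3-rs7 took 188 of 14621 counts in tumour 19, or 1.29% (exact 95% Clopper-Pearson interval 1.11 to 1.48%). It took 1.29% in tumour 20 (1.06 to 1.56%) and 0.611% in tumour 127 (0.406 to 0.881%). The share was 51.7% in tumour 13 (50.8 to 52.7%), 52.7% in 14A (51.9 to 53.4%), 58.1% in 59 (57.1 to 59.2%) and 53.5% in 61 (52.4 to 54.6%). In tumour 14B it was 53.6% (52.4 to 54.7%). The 8 tumours thus fell at 2 levels, near 1% and above 50%, with none between. Intervals cover counting error only, since PCR copies are counted separately.

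**Figure D1:**
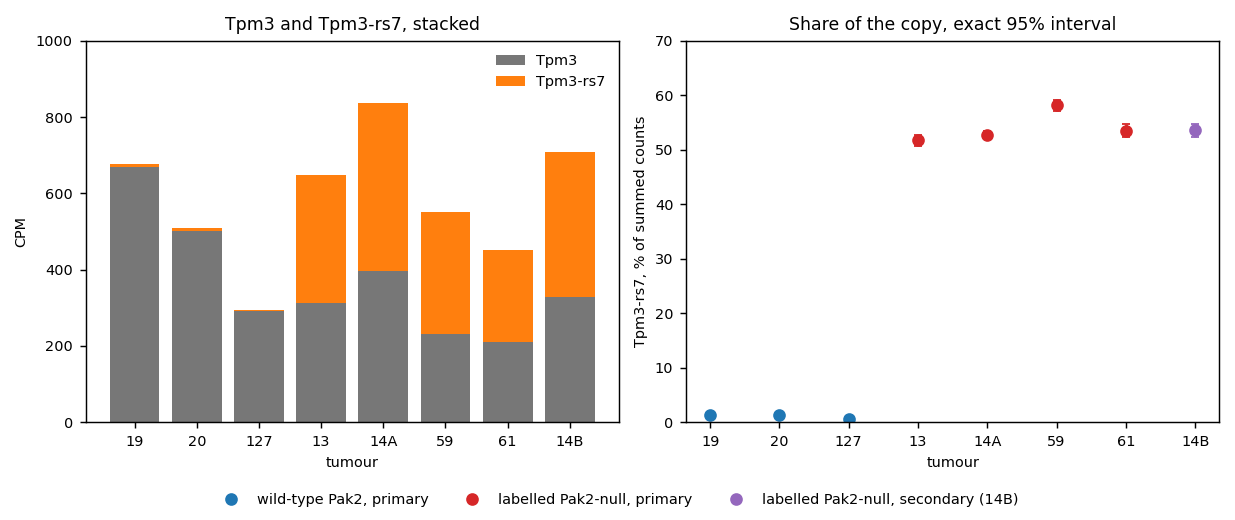
Left, CPM of Tpm3 (grey) and Tpm3-rs7 (orange) stacked for each of the 8 tumours. Right, Tpm3-rs7 as a percentage of the summed counts of both genes, with exact 95% intervals (often smaller than the point): 0.611 to 1.29% in the 3 wild-type tumours and 51.7 to 58.1% in the 5 others.

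Tpm3 itself had 669, 502 and 292 CPM in the wild-type tumours 19, 20 and 127. It had 313, 396, 231 and 209 CPM in tumours 13, 14A, 59 and 61, and at 329 CPM in 14B. The groups overlapped, with the wild-type tumour 127 below tumours 13 and 14A. Its log2 fold change of -0.74 (SE 0.38) missed the threshold of the edgeR quasi-likelihood fit over all genes (Benjamini-Hochberg adjusted p = 0.467), and it was -0.46 without tumour 19. Only the sum of both genes does not depend on where a read that fits both was placed. The sum still depends on whether such reads were counted at all, which is not stated. The sum was 678, 508 and 294 CPM in tumours 19, 20 and 127 and 648, 837, 551 and 451 CPM in tumours 13, 14A, 59 and 61. Refitted as 1 gene, the sum gave a log2 fold change of 0.35 (SE 0.38, edgeR adjusted p = 0.734), so the sign of the Tpm3 difference turned when the copy was added.

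Tpm2, beta-tropomyosin, had the largest difference among the other members. Its level was 337, 2369 and 1587 CPM in tumours 19, 20 and 127. In tumours 13, 14A, 59 and 61 it was 228, 18.1, 143 and 247 CPM. Every tumour labelled Pak2-null lay below every wild-type tumour, but the gap between tumours 19 and 61 was small beside the range within either group. The log2 fold change of -3.15 (SE 0.94) had an unadjusted p of 0.0115 and did not pass edgeR's test over all genes (adjusted p = 0.197). It passed under DESeq2 with Benjamini-Hochberg adjustment (-3.15, adjusted p = 0.00872) and under limma-voom with quality weights (-3.44, adjusted p = 0.0265), and over all alternatives the adjusted p ran from 0.00872 to 0.510.

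Tpm1, alpha-tropomyosin, was ordered the same way. It measured 902, 2635 and 1275 CPM in the wild-type tumours 19, 20 and 127, and 741, 132, 711 and 744 CPM in tumours 13, 14A, 59 and 61. The groups did not overlap, though tumours 13, 59 and 61 lay close to tumour 19. Its log2 fold change was -1.44 (SE 0.65, edgeR adjusted p = 0.415), and without tumour 20 it was -0.88.

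Tpm1, Tpm2 and the skeletal muscle marker sum were all highest in tumours 20 and 127, but their order differed among the rest. Tumour 13 had the lowest marker sum of the 8 (15.1 CPM), with Tpm1 at 741 CPM and Tpm2 at 228 CPM. Tumour 61 had a sum of 903 CPM, with Tpm1 at 744 CPM and Tpm2 at 247 CPM. All 19 tested skeletal muscle markers had lower means in the tumours labelled Pak2-null and groups that did not overlap (14.0% of all genes did not overlap). None passed edgeR's adjusted test, and all 19 had an unadjusted p under 0.05 (12.9% of all genes). DESeq2 passed 19 as lower (7.46% of all genes in either direction), plain limma-voom passed 0 (0.162%) and limma-voom with quality weights passed 16 as lower (6.16%). The embryonic myosin heavy chain Myh3 had 37.1, 325 and 2491 CPM in the wild-type tumours and 0.495 to 11.2 CPM in the 4 labelled Pak2-null. Several defining markers were at 0 there: Myod1, the myogenic regulator, in tumour 13, Myog in 14A, and Tnnc2 in all 4. Smooth muscle markers summed to 1466, 4777 and 3852 CPM in tumours 19, 20 and 127 and to 243 to 1078 CPM in those 4. In whole tumours, fewer cells of a type and less RNA per cell cannot be told apart, and the part of muscle cells in the tropomyosin differences was not tested.

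Tpm4, the other cytoplasmic tropomyosin, had the opposite sign. It had 293, 423 and 340.0 CPM in the wild-type tumours 19, 20 and 127, and 1129.9, 219, 534 and 646 CPM in tumours 13, 14A, 59 and 61. Of those 4, tumours 13, 59 and 61 were above every wild-type tumour and 14A was below every one. This gave a log2 fold change of 0.87 (SE 0.53, edgeR adjusted p = 0.548), or of 1.15 (SE 0.36, adjusted p = 0.177) without 14A and 0.42 (adjusted p = 0.751) without tumour 13.

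**Figure D2:**
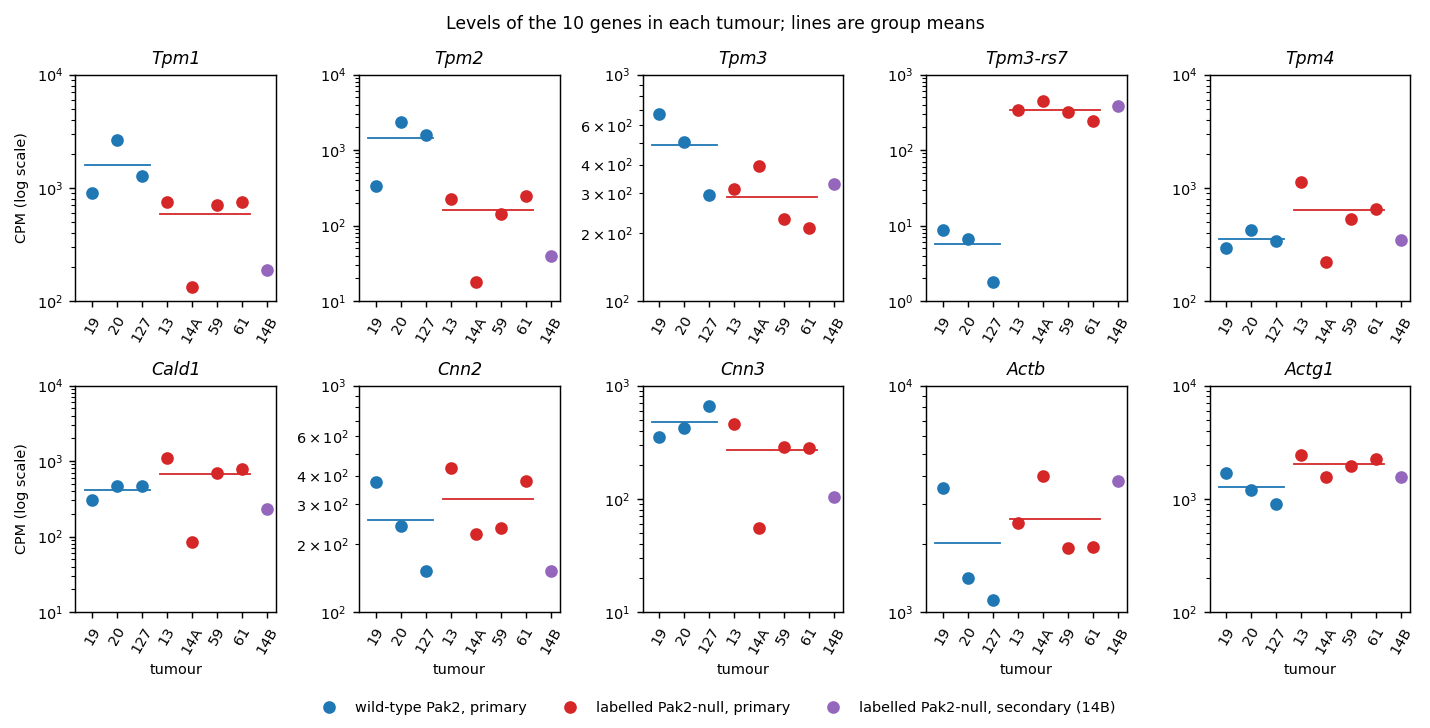
CPM (log axis) of each of the 10 genes in each tumour, with a line at the mean of the 3 wild-type (blue) and of the 4 primary tumours labelled Pak2-null (red), and 14B in purple. The red points lie below all blue points for Tpm1 and Tpm2 and above them for Tpm3-rs7, while 14A is the lowest point for Tpm1, Tpm2, Tpm4, Cald1 and Cnn3.

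Levels of different genes were compared per length, as CPM per kilobase of the deposited gene length. Tpm1 and Tpm2 together made up 52.4, 82.9 and 80.5% of the tropomyosin sum in tumours 19, 20 and 127. They made up 30.5, 10.1, 38.4 and 42.3% in tumours 13, 14A, 59 and 61, and 14.7% in 14B. The share was lower in each of the 4 primary tumours labelled Pak2-null than in each wild-type tumour. The sum includes Tpm3-rs7, which was chosen by its difference between these groups and so lowers this share by construction. Tpm3-rs7 took 13.05 to 39.27% of the sum in those 4 and 0.0587 to 0.465% in the wild-type tumours. Shares without it were not computed. Tpm4 alone took 44.9, 19.3, 30.9 and 34.6% in tumours 13, 14A, 59 and 61, against 8.23 to 15.4% in the wild-type tumours. Tpm1 stood at 2.27, 4.59 and 2.76 times Tpm4 per length in tumours 19, 20 and 127, and below Tpm4 in the other 5 tumours (0.397 to 0.980 times). Shares within a sum move against each other by construction, and no test was made of them.

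Tropomyosin (with Tpm3-rs7 in the sum) relative to cytoplasmic actin, both summed per length, was 0.331, 1.80 and 1.39 in tumours 19, 20 and 127. It was 0.468, 0.186, 0.407 and 0.406 in tumours 13, 14A, 59 and 61. The groups overlapped through tumour 19, the wild-type tumour with the lowest muscle marker sum.

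**Figure D3:**
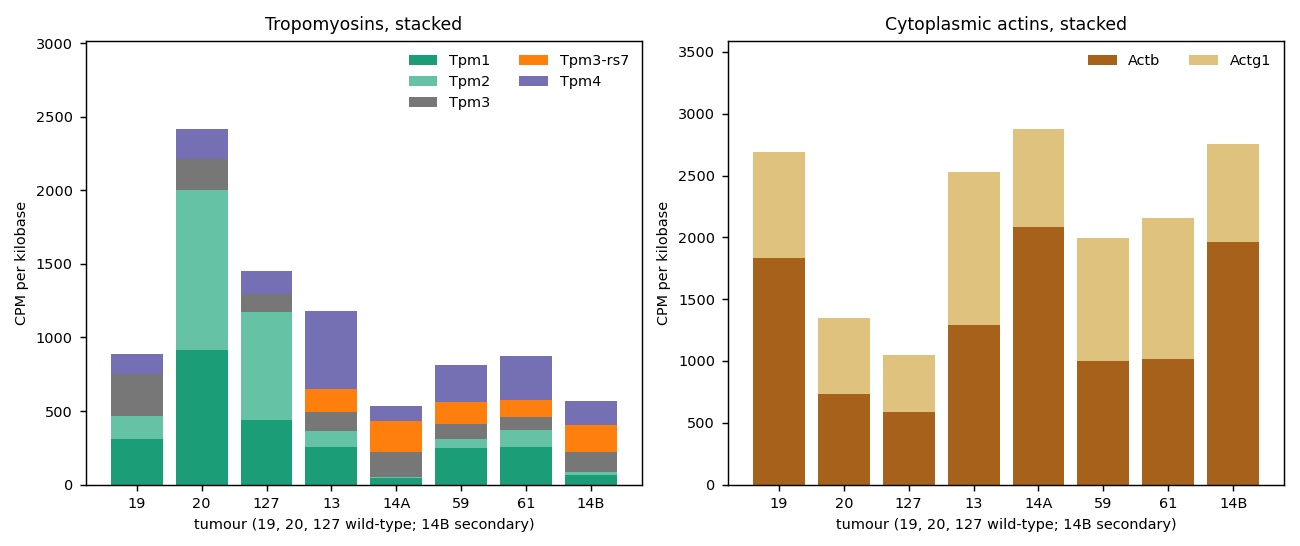
CPM per kilobase of the tropomyosins (left) and of the cytoplasmic actins (right), stacked for each tumour. Tpm1 and Tpm2 (greens) fill 52.4 to 82.9% of the tropomyosin bar in the wild-type tumours and 10.1 to 42.3% in the 4 primary tumours labelled Pak2-null.

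Caldesmon, which blocks myosin on tropomyosin-bound filaments, was measured at 305, 471 and 469 CPM in tumours 19, 20 and 127. In tumours 13, 14A, 59 and 61 it was at 1108, 84.1, 695 and 776 CPM. Like Tpm4, it was above every wild-type tumour in 3 of the 4 and below every one in 14A. A log2 fold change of 0.71 resulted (SE 0.74, edgeR adjusted p = 0.727), or of 1.07 (SE 0.32, adjusted p = 0.159) without 14A, whose fibroblast marker sum (2616 CPM) was the lowest of the 8 tumours. Without tumour 13 it was 0.34 (adjusted p = 0.887). Outside 14A and 14B the fibroblast marker sum ran only from 21242 to 28261 CPM, while Cald1 ran from 305 to 1108 CPM. Tumours 13 and 19 had sums of 23171 and 23867 CPM, with Cald1 at 1108 and 305 CPM. The part of fibroblasts in Cald1 was not tested.

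Calponin 3, a calponin of cells that are not muscle, was at 353, 421 and 662 CPM in tumours 19, 20 and 127. It was at 453, 55.6, 286 and 283 CPM in tumours 13, 14A, 59 and 61. The groups overlapped through tumour 13, and the log2 fold change of -0.81 (SE 0.62, edgeR adjusted p = 0.630) was -0.47 without 14A and -0.52 without tumour 127. Calponin 2, known from leucocytes and stromal cells, was among the steadiest members, at 375, 239 and 152 CPM in the wild-type tumours and 432, 220.3, 234 and 377 CPM in tumours 13, 14A, 59 and 61. Its log2 fold change was 0.33 (SE 0.41, edgeR adjusted p = 0.776), and with single tumours left out it ran from 0.05 (without 127) to 0.70 (without 19). The coding sequences of the 2 calponins are 68.94% identical over the aligned bases.

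The cytoplasmic actins are near-identical proteins, but their transcripts can be told apart. Their coding sequences (1125 bases each) were 88.62% identical, and the first 60 coding bases already differ at 9 places, shown in capitals. These lie at chr5:142905627-142905686 for Actb and chr11:120348032-120348091 for Actg1, both on the minus strand.

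Actb: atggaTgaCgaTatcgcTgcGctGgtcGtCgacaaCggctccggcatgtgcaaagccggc
Actg1: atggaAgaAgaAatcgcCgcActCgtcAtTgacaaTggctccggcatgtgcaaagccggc

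Actb was at 3512, 1407 and 1125 CPM in tumours 19, 20 and 127, and at 2472, 3996, 1924 and 1944 CPM in tumours 13, 14A, 59 and 61. Tumour 19 lay above all but 14A of the other group. Its log2 fold change was 0.38 (SE 0.52, edgeR adjusted p = 0.799), and it depended on single tumours: 1.03 (adjusted p = 0.367) without tumour 19, but 0.09 (adjusted p = 0.954) without 14A, 0.07 (adjusted p = 0.991) without 127 and 0.18 (adjusted p = 0.950) without 20. The leucocyte marker sum was lowest in tumour 127 (649 CPM) and highest in 14A (5708 CPM), as was Actb. Between these the orders differed. Tumour 19, with Actb at 3512 CPM, had a leucocyte sum of 1433 CPM. Tumour 59, with Actb at 1924 CPM, had a sum of 1601 CPM. The part of leucocytes in the Actb level was not tested.

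Actg1 varied least of the members over the 8 tumours, with an SD of 0.47 in log2 CPM against a median of 0.60 over all tested genes. It was at 1684, 1192 and 903 CPM in tumours 19, 20 and 127, and at 2421, 1545, 1935 and 2237 CPM in tumours 13, 14A, 59 and 61. Only 14A fell below a wild-type tumour (19). The log2 fold change was 0.71 (SE 0.36, edgeR adjusted p = 0.462), and limma-voom with quality weights passed it (0.90, adjusted p = 0.0480, the lowest among the alternatives, which ran up to 0.819). Of the 100-base windows of Actg1, 51.1% also occur in annotated pseudogenes. The closest in the table, Gm12715 (99.645% identical), took 0.901 to 1.16% of the summed counts in all 8 tumours. That share cannot show whether reads matching both genes were counted. Unlike the Tpm3 pair, this share had no step between the groups.

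Per length, Actb stood at 2.12, 1.20 and 1.27 times Actg1 in tumours 19, 20 and 127. The ratio was 1.04, 2.63, 1.01 and 0.884 in tumours 13, 14A, 59 and 61, and 2.48 in 14B. In tumour 61 alone Actg1 was the higher. Of 100-base windows, 51.1% of Actg1 but 1.1% of Actb also occur in other genes. How reads that match several genes were counted is not stated, so the level of this ratio is uncertain. One of the 2 actins was the highest of the 10 genes per length in tumour 19 and in every tumour labelled Pak2-null, whereas Tpm2 ranked first in tumours 20 and 127.

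**Figure D4:**
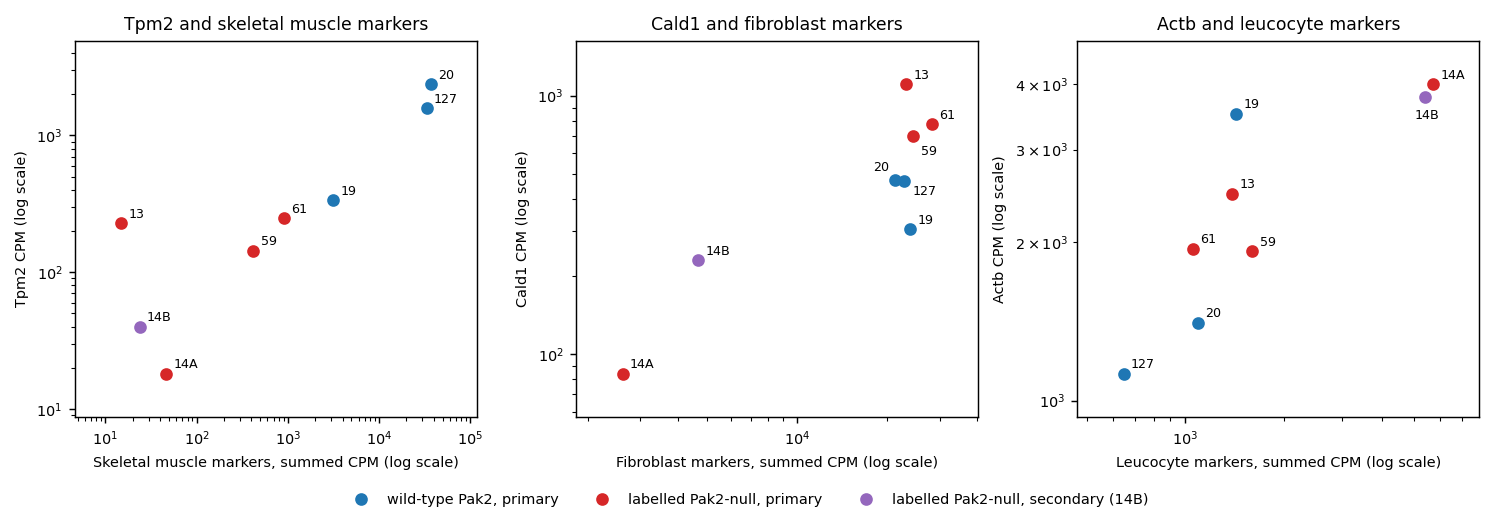
Tpm2 against summed skeletal muscle markers, Cald1 against summed fibroblast markers, and Actb against summed leucocyte markers (CPM, log axes), 1 point for each of the 8 tumours. Tumours 20 and 127 are highest on both axes on the left, 14A and 14B lowest on both axes in the middle, and 14A and 14B highest on both axes on the right.

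Over the 10 members, 6 log2 fold changes were above 0 and 4 below, with a median of 0.35 against 0.06 over all 15412 genes. One member, Tpm3-rs7, was among the genes that passed edgeR's adjusted test. Of all genes tested, 0.0714% (11) passed in either direction and 0.0195% (3) as higher, and since the known call of Tpm3-rs7 put it on the list, nothing is read from its count. Tpm2 and Tpm3-rs7, 2 of the 10, had an unadjusted p under 0.05, against 12.9% of all genes. For 3 of 10 the groups did not overlap (Tpm1, Tpm2 and Tpm3-rs7), against 14.0% of all genes. By its choice Tpm3-rs7 was sure to be in both of these counts and among the 6 above 0, so nothing is read from them. Apart from Tpm3-rs7, no member's difference passed the edgeR test over all genes.

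**Figure D5:**
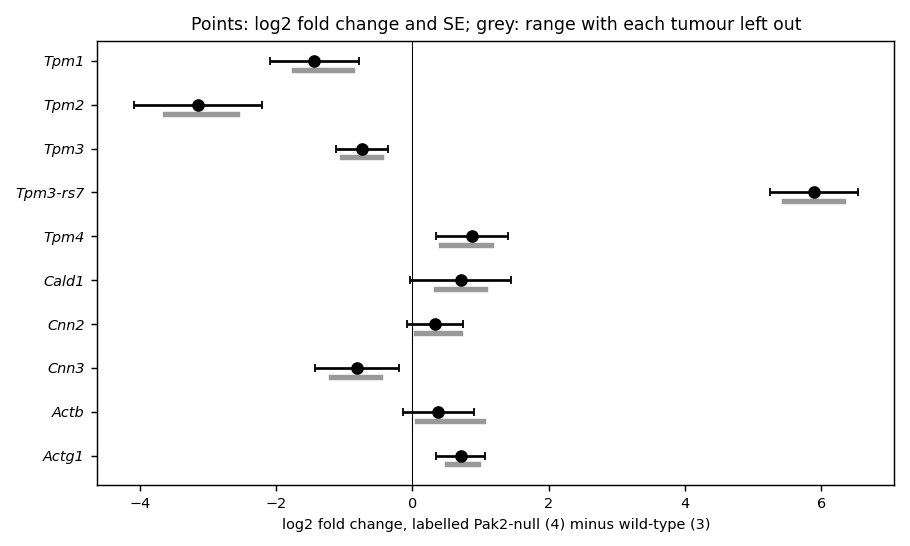
Log2 fold change (labelled Pak2-null minus wild-type) of each member with its standard error (black), and the range with each primary tumour left out in turn (grey). Tpm3-rs7 is at 5.89 and Tpm2 at -3.15, while the other 8 lie between -1.44 and 0.87.

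The members did not vary as 1 block across tumours. Over all 8 tumours, log2 CPM of Tpm1 and Tpm2 had a Pearson correlation of 0.97, and Tpm4 and Cald1 one of 0.89. These values stayed high without tumours 14A and 14B, at 0.93 and 0.96 over 6 tumours. Tpm1 and Cnn3 went from 0.91 to 0.45, and Cald1 and Cnn3 from 0.79 to -0.16, so those 2 relations rested on 14A and 14B. The points share libraries and normalisation, groups differ in level, and the values are descriptions.

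The genes most like each member over the 8 tumours (Pearson correlation of log2 CPM, among tested genes whose mean log2 CPM reached 3) differed between members. Tpm1 and Tpm2 shared the matrix protein gene Thbs4 among their closest 3 (0.988 and 0.989). For Tpm4 the closest was the small GTPase gene Rhob (0.984), and for Cald1 it was Nckap1, a subunit of the WAVE complex (0.995). Actb lay closest to Arpc4, a subunit of the Arp2/3 complex that branches actin filaments (0.991), and Actg1 to Atxn7l3b (0.984). Cnn2 lay closest to Kdm2b (0.958), Cnn3 to Pcbp4 (0.993) and Tpm3 to Tinagl1 (0.923).

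For Tpm3-rs7 the 3 closest were Hoxb4 (0.994), Rps3a3 (0.989) and Rps3a2 (0.980). Rps3a3 had 3.38, 6.46 and 1.60 CPM in wild-type tumours 19, 20 and 127 and 278, 374, 288 and 375 CPM in tumours 13, 14A, 59 and 61, with 333 CPM in 14B. Rps3a2 had 3.38, 5.03 and 3.53 CPM in the wild-type tumours, and 89.8 to 162 CPM in those 4. Both genes were low in the 3 wild-type tumours and higher in each of the other 5. Hoxb4 ran from 4.75 to 6.68 CPM in the wild-type tumours and from 14.9 to 17.9 CPM in those 4. Since Tpm3-rs7 was chosen by its difference between the groups, genes ranked by likeness to it share that difference by construction.

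Other genes of the filament were taken from lists by role. Of 26 tested genes that nucleate or elongate filaments, 19 had higher and 7 lower means in the tumours labelled Pak2-null, with a median log2 fold change of 0.38. None passed edgeR's adjusted test, 2 higher and 3 lower had an unadjusted p under 0.05 (12.9% over all genes), and DESeq2 passed 1 higher and 2 lower (7.46% over all genes). Daam2, a formin, had the lowest p of them. Its level was 63.7, 23.5 and 34.7 CPM in the wild-type tumours and 5.35 to 9.20 CPM in the 4 labelled Pak2-null (log2 fold change -2.43, SE 0.39, edgeR adjusted p = 0.0978). Fmnl2, another formin, had the opposite sign, at 28.2 to 37.2 against 41.5 to 81.8 CPM (log2 fold change 1.08, SE 0.28, adjusted p = 0.154).

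Of 28 tested genes that sever or cap filaments or bind monomers, 17 had higher and 11 lower means, with a median log2 fold change of 0.39. None passed edgeR's adjusted test, 4 higher and 3 lower had an unadjusted p under 0.05 (12.9% over all genes), and DESeq2 passed 1 higher and 3 lower (7.46% over all genes). The 2 with the lowest p are known from striated muscle: Tmod1, which caps pointed ends, at 5.75 to 130.1 against 0.257 to 2.91 CPM, and Cap2 at 23.6 to 301 against 0.0619 to 5.03 CPM. Ssh1, a phosphatase that activates cofilin, was at 28.8 to 32.5 against 39.6 to 68.1 CPM (log2 fold change 0.87, SE 0.24, edgeR adjusted p = 0.172).

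Of 25 tested genes that crosslink or bundle filaments or tie them to the membrane, 18 had higher and 7 lower means, with a median log2 fold change of 0.37. None passed edgeR's adjusted test, 4 higher and 1 lower had an unadjusted p under 0.05 (12.9% over all genes), and DESeq2 passed 1, as lower (7.46% over all genes). Ablim3, an actin-binding LIM protein, had the lowest p of this list, at 23.2 to 178 against 4.52 to 10.97 CPM (log2 fold change -3.46, SE 0.73, edgeR adjusted p = 0.118), without overlap. Moesin (Msn), a relative of merlin that links filaments to the membrane, had 516, 471 and 593 CPM in the wild-type tumours. It had 1633, 1617, 703 and 774 CPM in tumours 13, 14A, 59 and 61 (log2 fold change 1.19, SE 0.42, edgeR adjusted p = 0.286), without overlap. The medians of these 3 lists are set against 0.06 over all tested genes and were not tested. Plain limma-voom passed no gene of the 3 lists (0.162% over all genes). Limma-voom with quality weights passed 2 lower in the first, 2 higher and 2 lower in the second, and 3 higher and 1 lower in the third. Its share over all genes was 6.16% in either direction.

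In the list of muscle actins and calponin 1, all 5 genes were lower in mean in the tumours labelled Pak2-null, with a median log2 fold change of -2.44. None passed edgeR's adjusted test, 4 had an unadjusted p under 0.05 (12.9% over all genes), and DESeq2 passed 4 (7.46%) and limma-voom with quality weights 1 (6.16%), all as lower. Skeletal actin (Acta1) had 1154.8, 9190.3 and 7698 CPM in the wild-type tumours 19, 20 and 127, and 2.48, 3.08, 99.8 and 253 CPM in tumours 13, 14A, 59 and 61. Smooth muscle actin (Acta2) was at 534 to 1080.1 CPM against 46.0 to 551 CPM, with overlapping groups. The log2 fold change of cardiac actin (Actc1) was -7.85 (SE 2.01), that of enteric smooth muscle actin (Actg2) -2.44 (SE 0.73) and that of calponin 1 (Cnn1) -2.43 (SE 0.57). Actg2 and Cnn1 were low in every tumour, at no more than 80.8 and 20.4 CPM.

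The CArG box is the DNA element bound by SRF. RefSeq promoter windows (GRCm38.p6, 250 bases before to 50 after a start) were found for 8 of the 10 members, 10 windows in all. Actb and Tpm3-rs7 had no window and were not searched. The box, which is its own reverse complement, lay in 2 of the 10 windows, those of Cnn2 and Actg1, against 535 of 32851 windows (1.63%) over all genes. The 60 bases around each are shown because they hold the box, in capitals. The first is at chr10:79988519-79988578 on the plus strand, with the box 56 bases before the start, and the second at chr11:120348551-120348610 on the minus strand, 90 bases before the start.

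Cnn2: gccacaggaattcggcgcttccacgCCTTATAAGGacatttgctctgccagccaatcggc
Actg1: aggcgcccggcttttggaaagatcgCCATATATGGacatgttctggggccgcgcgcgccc

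A match describes these letters and does not show binding. Srf itself was at 116, 103 and 108 CPM in tumours 19, 20 and 127 and at 85.2, 88.7, 65.2 and 63.9 CPM in tumours 13, 14A, 59 and 61 (log2 fold change -0.50, SE 0.20, edgeR adjusted p = 0.366). Its actin-sensing cofactor Mkl1 was at 44.7 to 51.1 CPM against 66.7 to 108 CPM (log2 fold change 0.85, SE 0.22, adjusted p = 0.152). Of the 6 tested genes of the SRF list, 3 had higher and 3 lower means. At an unadjusted p under 0.05 there were 2 higher and 1 lower (12.9% over all genes). None passed edgeR's adjusted threshold and 1, higher, passed that of DESeq2 (7.46% over all genes).

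Tumour 14B, the single secondary tumour, has no replicate, and its differences carry no test. It lay inside the range of the 4 primary tumours labelled Pak2-null for 9 of 10 members, and for Cnn2 (152 CPM) it was below. Against the mean log2 CPM of the 4, it was lower by 2-fold or more for 4 members, Tpm1 (-1.35), Tpm2 (-1.46), Cald1 (-1.03) and Cnn3 (-1.02), where 22.9% of all genes differed as much either way. Cnn2 lay just inside that limit (-0.99). Compared with 14A, which bears the same number, it differed by 2-fold or more in Cald1 (higher by 1.46 on the log2 scale) and Tpm2 (1.13), 2 of 10 members against 16.0% of all genes. Tpm1 at 187 CPM, Tpm2 at 39.8 CPM, Cald1 at 232 CPM and Cnn3 at 105 CPM in 14B were each closer to 14A than to any other primary tumour labelled Pak2-null, as were the fibroblast and leucocyte marker sums.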

How the data were processed

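Bulk RNA was sequenced from 8 mouse tumours. Per the labels' protocols, tumours were kept in RNA preservative, ground in liquid nitrogen and column-purified, and a company made mRNA-enriched, PCR-amplified libraries. The authors deposited unnormalised read counts per gene, and gene lengths in bases. STAR and HTSeq, on GRCm38/mm10, are named per the submitters' processing notes. Versions, strand and the handling of multiply matching reads are not stated, so overlapping and antisense genes cannot be told apart.

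From the counts, edgeR 4.0.16 (R 4.3.3; TMM, filterByExpr with a minimum count of 10 and a total of 15, quasi-likelihood test, Benjamini-Hochberg at 0.05) compared 4 primary tumours labelled Pak2-null with 3 wild-type, with no covariate, on 15412 genes. The standard error is the log2 fold change over the root of F. Log2 CPM used a prior count of 2. The fit was tested on simulated data. Alternatives were other scalings and filters, DESeq2 1.42.0, limma 3.58.1 voom, each tumour left out, 14B added, and Tpm3-rs7 added to Tpm3. The deposited gene length equals the longest GENCODE M21 transcript for 73% of the genes found there and for 8 of the 10 members. Copies were aligned with BLAST 2.17.0 and Biopython 1.88.

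Members and lists were chosen with earlier results of these data known. Named genes are all members, up to 4 tested genes with the lowest p of each list, all muscle actins, and the 3 genes most correlated with each member. Myh3, Msn, Fmnl2, Ssh1 and others named come from these, and markers at 0 were named after their values were seen. The table held 8 count columns and no identical columns.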

Additional observations from a re-analysis of the deposited data

Results flagged for a closer look

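Among the 4 primary tumours labelled Pak2-null, 3 values of tumour 14A lay far from the other 3 tumours by Dixon's criterion. Tpm1 stood at 131.9 CPM in 14A, against 711 to 744 CPM in the others. Actb stood at 2.63 times Actg1 per length in 14A, against 0.884 to 1.04 times. Tpm3 with Tpm3-rs7 made up 70.57% of the tropomyosin sum in 14A, against 23.1 to 30.7%. These are 3 flags from 19 groups of values tested, where chance gives about 1 in 20, and all 3 come from 1 library whose fibroblast and leucocyte marker sums (2616 and 5708 CPM) also stood apart. Their part in these values was not tested.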

How the results depend on the processing

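No paired analysis was possible because the groups share no replicate number. The number of all genes called was 11, and it was 20 with a filter of at least 1 CPM in 3 tumours, 1149 under DESeq2, 25 under limma-voom, 950 under limma-voom with quality weights, 191 with tumour 14B added, and 0 to 59 with each primary tumour left out. The number of members called was 1 (Tpm3-rs7). It was 2 under DESeq2, 3 under limma-voom with quality weights, 0 with Tpm3-rs7 added to Tpm3, and 0 to 1 with each primary tumour left out. Nothing is read from these counts of members, since Tpm3-rs7 was chosen by this difference, and its log2 fold change ran from 5.45 to 6.32 with each primary tumour left out. The cause of the changes in the counts was not tested. Tpm3 with the copy added turned from -0.74 to 0.35, by the construction of the sum, and the sum stayed above 0 (0.07 to 0.63) in all its alternatives. Tpm1, Tpm4, Cald1, Cnn2, Cnn3 and Actb kept their sign and failed the threshold in all 18 alternatives each, with ranges of -1.74 to -0.88, 0.42 to 1.15, 0.25 to 1.07, 0.05 to 0.70, -1.19 to -0.47 and 0.07 to 1.03. Other scalings moved the median of all genes to between 0.02 and 0.07. The correlations without 14A and 14B were chosen after seeing the data. With 3 against 4 tumours, a p that misses the threshold does not show that levels were alike.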
